A study of Capsicum annuum with 78 samples.

Results

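Of 35884 pepper genes counted in leaves, 120 are described here that had less mRNA under heat and more under cold than in mock leaves of the same time. They were chosen from the read counts. CPM is a gene's count divided by the library total and multiplied by 1000000, and x is the mean of log2(CPM + 1) over the 3 libraries of a group. The difference of x between a stress and the mock of the same time was averaged over the 5 time points, giving D. Of 16096 genes with a mean mock level from 2 to 1000 CPM, 295 had a D(heat) of -0.6 or lower together with a D(cold) of 0.6 or higher, and the 120 with the widest gap between both were kept. The last gene kept had D values of -1.35 in heat and 0.999 in cold, and the first left out had -0.72 and 1.62, so the edge of the list is not a break in the data. Among the same 16096 genes, 248 met the opposite limits (higher in heat, lower in cold), 363 were past 0.6 upward in both stresses and 477 downward in both.

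The plants were *Capsicum annuum* of the cultivar CM334, 6 weeks old, with 6 true leaves when treated, from a growth room at 24 °C. Heat was 40 °C, cold was 10 °C, and the other plants received 50 mL of 400 mM mannitol (osmotic stress) or 400 mM NaCl (salinity stress). Mock plants carried no treatment and were sampled at 0 h and beside every stress group, after 3, 6, 12, 24 or 72 h. Each of the 26 groups held 3 biological replicates, and each replicate pooled leaf number 3 or 4 of 4 plants. The label of leaf tissue could not be checked against marker genes, because the gene identifiers come without names. Since a whole leaf was extracted, fewer cells of a type and less RNA per cell cannot be told apart.

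Leaves meet cold and heat with different programmes. In many plants cold calls up CBF/DREB transcription factors and their target genes, dehydrins and enzymes of protective sugars among them, while heat calls up heat shock factors, chaperones and proteins that keep other proteins folded. The circadian clock also changes the level of many leaf genes over a day, and in Arabidopsis it gates the cold response. None of this assigns a role to a gene here: 0 of the identifiers matched the 48341 genes of the RefSeq name table, so genes are given by scaffold and running number (scaffold640.14) with no name and no sequence. The 120 genes lay on 105 scaffolds, 14 of which held more than 1 of them. In 3 pairs the running numbers were within 5 of each other, scaffold1134.7 and scaffold1134.9 being one pair, and reads of near-identical neighbours may have been split between them.

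Library totals lay between 4310398 and 7667094 counts, with medians of 5077986 in heat and 6252996 in the mock. All 120 genes were deep enough to be tested. Their mean mock level lay between 2.22 and 757 CPM (median 22.6 CPM), against 17.8 CPM over the 16096 genes, and 36 were below 10 CPM. A few libraries stood apart from their fellow replicates over the 120 genes. Mock 6 h replicate 1 had a median level of 5.05 on the log2(CPM + 1) scale, where its fellows had 4.10 and 4.14. Mock 0 h replicate 3 lay low (3.27 against 4.43 and 4.44), and mock 12 h replicate 1 lay high (4.08 against 3.08 and 3.3). In mannitol, replicate 3 lay high at 6 h (4.36 against 3.33 and 3.42) and at 12 h (3.84 against 3.19 and 3.28), and in both cases its nearest library, by correlation over the 16096 genes, was one of NaCl at the same time. The NaCl libraries of these times were each nearest to another of their own group. An exchange of labels between mannitol and NaCl was not tested, and it would change what the mannitol and NaCl values of these times mean. Where leaving out 1 of these libraries moved a count by over 1.5 times, both counts are given in most cases.

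The level of the 120 genes in heat and cold chose them, so these values are a description. D(heat) lay between -2.84 and -0.62, its median being -1.38, and D(cold) went from 0.61 to 3.76 with a median of 1.42, where the medians over all 16096 genes were 0.14 and -0.01. The fall under heat was already wide at 3 h (median difference -1.13) and was widest at 6 h (-1.85) and 72 h (-1.72). As a median over the set, the rise in cold came later. At the 5 times, in order, this median was 0.46, 1.55, 2.15, 1.31 and 1.58. Single genes differed: the cold differences at 3 h ran from -2.62 to 3.77, with 74 genes above the mock and 46 below it. The median of all genes in cold was 0.40 at 72 h, in the direction of the set, and -0.34 at 12 h, in the opposite direction. In heat 96 genes were under their mock at all 5 times and the other 24 at 4 of them. In cold 46 were above the mock at all 5 times, 57 at 4, 15 at 3 and 2 at only 2.

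**Figure D1:**
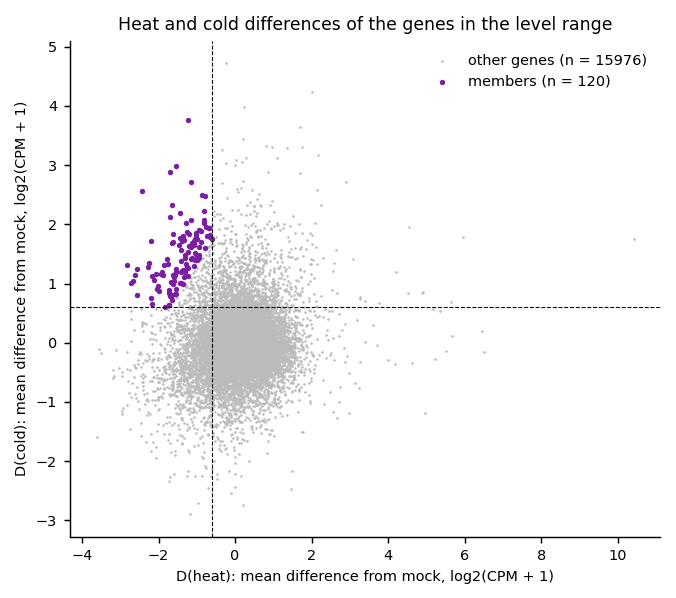
Mean difference from the mock over 5 time points, on the log2(CPM + 1) scale, for heat (horizontal) and cold (vertical), 1 point a gene for the 16096 genes in the level range; dashed lines are the limits of -0.6 and 0.6, and the 120 genes described are in purple. These 120 lie in the upper left corner, from -0.62 down to -2.84 in heat and from 0.61 up to 3.76 in cold, so some lie close to a limit.

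**Figure D2:**
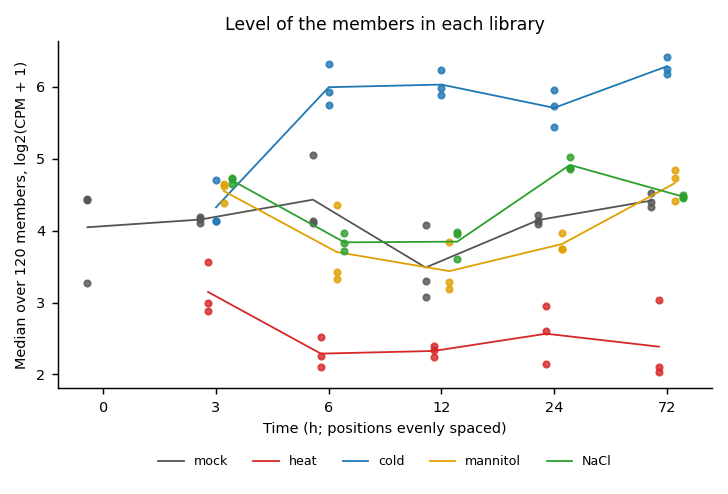
Median of log2(CPM + 1) over the 120 genes in every library (points) and the mean of the 3 libraries of a group (lines), by time and treatment. Heat libraries lay at 3.57 or lower at every time, and cold libraries stood between 5.44 and 6.42 from 6 h on. Mannitol and NaCl libraries lay between 3.19 and 5.02. NaCl was above its mock at 24 h (4.85 to 5.02 against 4.09 to 4.22) and below it at 6 h (3.72 to 3.96 against 4.1 to 5.05). Mock 6 h replicate 1 was at 5.05.

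At single times most of the genes had separate heat and mock libraries. All 3 heat libraries were below all 3 mock libraries for 84 genes after 3 h (29.5% of the 16096 genes did the same), and for 113 (26.6%), 88 (28.0%), 108 (23.3%) and 104 (22.0%) at the later times in order. All 3 cold libraries were above the mock for 64 genes after 3 h (16.2% of all), then 74 (18.5%), 99 (16.5%), 87 (39.4%) and 93 (53.0%). Over the whole course fewer genes had separate groups. Only 4 genes had every heat library under every one of the 18 mock libraries (1.86% of all), 6 had every cold library above every mock library (0.385%), and 48 had all 15 cold libraries above all 15 heat libraries (2.84%). In the edgeR fit, a gene was called when its Benjamini-Hochberg adjusted p was under 0.05 and its absolute log2 fold change over 1. By that rule 67 of the 120 were lower in heat after 3 h (background 11.5% of 19588 genes tested), followed in time order by 112 (13%), 83 (10.1%), 78 (11%) and 106 (13.4%). Higher in cold were 47 (3.09%), 81 (8.47%), 108 (12.8%), 70 (13.1%) and 66 (16.2%) in the same order. Since heat and cold chose the genes, nothing is read from these counts.

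When the rule was applied to 2 of the 3 replicates, the third, which had not been used, could be read on its own. Of the 120 genes chosen without replicate 1, 120 were under the mock in heat and 119 above it in cold in that replicate, with median D values of -1.46 and 1.36. Without replicate 2 the numbers were 119 and 120 (medians -1.23 and 1.56), and without replicate 3 they were 120 and 114 (medians -1.36 and 1.4). Of each such list, 109, 112 and 106 genes were among the 120 described. Fewer genes were past the limits of the rule in the unused replicate. In heat they numbered 118, 112 and 117, and in cold 113, 118 and 102, for replicates 1, 2 and 3. The same shares over all genes were not counted, so no excess is read from these numbers.

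The largest D(cold) belonged to scaffold640.14. Its mock libraries fell from 33.2, 38.7 and 39.7 CPM at 0 h to 1.01, 0.876 and 1.10 CPM at 12 h and stood at 99.1, 104 and 91.2 CPM at 72 h. Its cold libraries were at 219.6, 231 and 251 CPM at 12 h and never left the range from 147.9 to 311 CPM, above every mock library. Heat dipped with the mock and overlapped it at 12 h (1.27, 0.464 and 0.833 CPM), but was lower at 9.08, 9.80 and 9.46 CPM at 3 h and 16.5, 10 and 13.0 CPM at 72 h. The mean log2 fold change over the 5 times was 4.01 ± 0.07 (SE) in cold and -1.53 ± 0.14 in heat. The second, scaffold1184.6, had mock levels of 25.3, 20.9 and 19.3 CPM at 0 h, 3 or fewer counts in each mock library at 12 h, and 87.1, 82.9 and 87.7 CPM at 72 h. In cold it climbed from 27.0, 24.7 and 25.5 CPM at 3 h to 199.7, 217.5 and 240.7 CPM at 24 h.

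The lowest D(heat) values belonged to scaffold411.92 and scaffold1134.7, and their courses in the mock were opposite. In mock leaves scaffold411.92 went down to 4.72, 6.83 and 3.77 CPM at 12 h from 228.9, 256.5 and 336.7 CPM at 0 h. In heat it was at 15.7, 13.8 and 11.1 CPM at 3 h, where the mock had 156.8, 159.5 and 169.1 CPM, and its mean log2 fold change was -3.30 ± 0.11. Its cold level was above the mock at 12 h (164.7, 155.3 and 169.6 CPM) and below it at 72 h (50.1, 68.5 and 67.2 against 439.7, 415.4 and 464.3 CPM). In contrast, scaffold1134.7 was high in the mock at 6 h (61.3, 50.4 and 66.8 CPM) and low at 24 h (15.8, 16.4 and 18 CPM). Its heat libraries at 72 h held 5.03, 0.386 and 0 CPM, so replicate 1 lay apart, and its cold libraries at 72 h held 143.5, 124.5 and 146.1 CPM. Part of the set was near the floor in heat. Genes with 3 or fewer counts in all 3 heat libraries numbered 2, 5, 16, 11 and 13 in time order. Above that floor at every heat time were 94 genes, and the share over all genes was not counted.

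**Figure D3:**
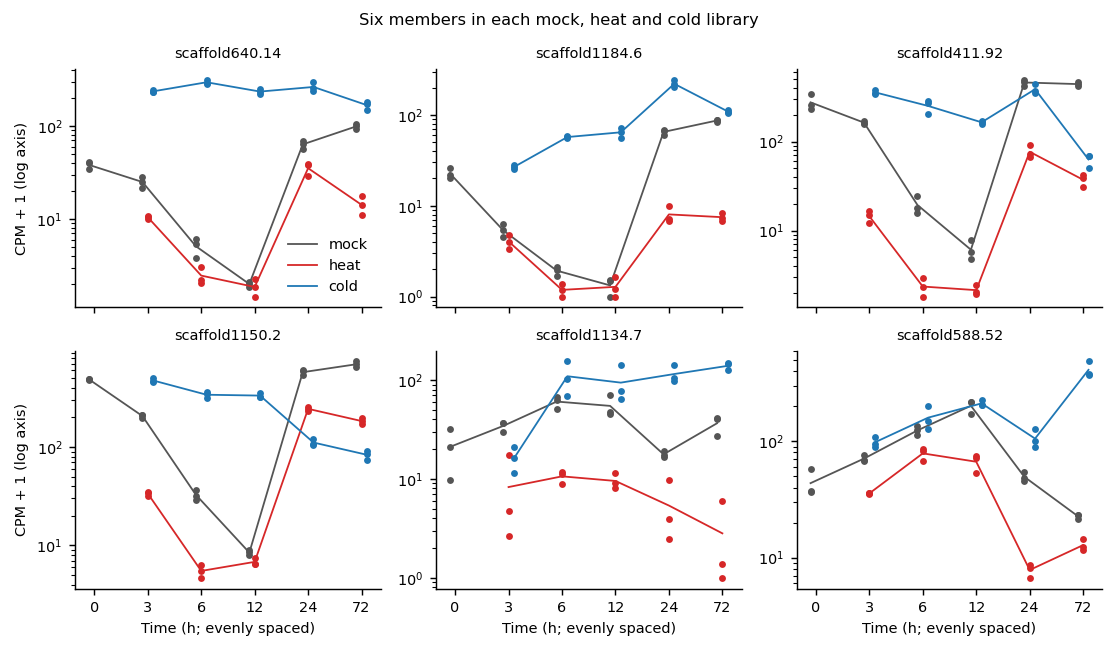
CPM + 1 on a log axis in each mock (grey), heat (red) and cold (blue) library for 6 of the 120 genes, with lines through the group means. In scaffold640.14, scaffold1184.6, scaffold411.92 and scaffold1150.2 the mock dipped at 6 and 12 h while cold stayed far above it, although the cold level of scaffold411.92 was also lower at 12 h (155.3 to 169.6 CPM) than at 3 h or 24 h, whereas scaffold588.52 was highest in the mock at 12 h and highest in cold at 72 h.

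The genes had different courses in the mock. The mock libraries from 3 h on were the baseline of the rule, so a dip of the mock raised D(cold) by itself. It raised D(heat) by as much, away from its limit, and left the gap between both unchanged. Since the mock thus took part in the choice, the counts of this paragraph are a description beside those of all genes. An F test over the mock times called 100 of the 120 (background 26%), and at 6 h against 0 h it called 37 genes higher (8.36%) and 40 lower (6.98%). The 120 genes peaked in the mock at 6 h in 53 cases (44.2%, against 23.5% of the 16096 genes) and at 12 h in 5 (4.17%, against 44.4%), and 36 had their lowest mock level at 12 h (30%, against 7.94%). After 3 h, 3 genes were higher (1.64%) and 19 lower (1.79%) than at the start. The 12 h mock had 8 higher (7.2%) and 48 lower (7.29%), the 24 h mock 9 higher (0.827%) and 11 lower (2.69%), and the 72 h mock 16 higher (2.54%) and 6 lower (3.49%). Scaling by library totals instead of TMM turned the 12 h split into 15 higher and 38 lower, and the 24 h split into 10 higher and 8 lower. Without mock 12 h replicate 1 or mock 0 h replicate 3, 5 genes instead of 8 were higher at 12 h, and 4 without replicate 3. The 24 h mock had 8 higher and 5 lower without replicate 1, and 7 and 2 without replicate 2, and the 6 lower genes at 72 h became 2 and 1. The 0 h libraries entered the rule only through the filter on mock level.

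By smallest p, the leading mock course upward was that of scaffold845.15, at 1.94, 0.642 and 1.04 CPM at 0 h, 75.1, 85.2 and 87.1 CPM at 6 h, and 0.277, 0.478 and 0 CPM at 24 h. Its change from 0 h to 6 h was 5.96 on the log2 scale. Downward it was scaffold1150.2, which fell from 489.4, 483.2 and 486.0 CPM at 0 h to 7.92, 7.53 and 6.92 CPM at 12 h and stood at 741.6, 646.4 and 688.9 CPM at 72 h. The largest of its mock changes was -6.34. Next came scaffold641.55, with 624.6, 631.2 and 607.9 CPM at 0 h and 37.2, 35.4 and 41.3 CPM at 6 h. In each of these 3 genes the libraries at 0 h and at the other times given did not overlap.

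Splitting the 120 genes by their mock call at 6 h, a division made after the values had been seen, gave 40 lower, 37 higher and 43 that were neither. The 40 genes had median mock levels of 6.50, 5.73, 4.31, 3.86, 7.28 and 7.24 in time order from 0 h, on the log2(CPM + 1) scale. In cold they stayed between 6.46 and 7.29 at all times. In heat they dipped as the mock did, from 3.86 at 3 h to 2.19 at 6 h and up to 5.99 at 24 h. The 37 genes were at 2.70, 3.51, 4.72, 3.33, 2.28 and 3.04 in the mock, in the same order. Their cold level was 2.57 at 3 h, under the mock (3.51), and 6.54 at 72 h, and their heat level sank from 2.59 at 3 h to 1.02 at 72 h.

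**Figure D4:**
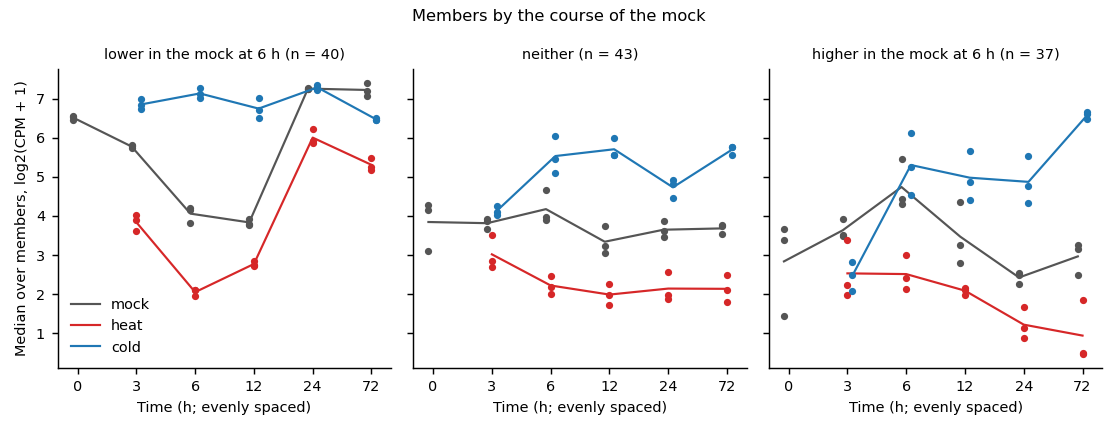
Median log2(CPM + 1) in each mock, heat and cold library (points; lines join group means) for the genes lower in the mock at 6 h than at 0 h (n = 40), neither (n = 43) and higher (n = 37). In the left panel cold stays near 7 while the mock dips to about 4, and in the right panel cold starts under the mock at 3 h and ends above it at 72 h; the mock points at 0 h and 6 h in the right panel are spread, with 1 library apart at each.

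The number 37 depended on 2 libraries. Without mock 6 h replicate 1 only 13 genes were higher in the mock at 6 h, and without mock 0 h replicate 3 there were 21, while the 40 became 42 and 38. Without replicate 1 in every group there were 17.

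The change of the cold difference between 3 h and 72 h was fitted as a difference of differences. Its libraries are among those the rule used, and both differences are terms of D(cold), so its counts are a description and no excess over all genes is read from them. The same holds for heat. Among the 120, 54 had a higher cold effect at 72 h than at 3 h (18.2% of all genes tested) and 39 a lower one (20.1%), so 93 changed (38.3%). Of the 40 genes lower in the mock at 6 h, 34 had a lower cold effect at 72 h and 0 a higher one, and of the 37 higher in the mock, 35 had a higher effect and 0 a lower one. The 2 contrasts have no library in common. The same held for genes in general: 994 of the 1367 genes lower in the mock at 6 h (72.7%) had a lower cold effect at 72 h, and 1117 of the 1637 higher genes (68.2%) a higher one. Without mock 6 h replicate 1, 12 of the remaining 13 and 32 of the 42 showed these directions. Without mock 0 h replicate 3, 20 of the remaining 21 and 32 of the 38 did.

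Of the 15 genes called lower in cold at 3 h (5.23% of all genes), all were higher at 72 h, as were 36.6% of the 1025 genes lower at 3 h among all tested. A gene under the mock at 3 h had to be above it later to reach the limit on D(cold), so this course was largely set by the choice of the genes, and without replicate 2 or without replicate 3 only 2 genes were lower at 3 h. Of the 47 that were higher at 3 h, 14 were lower at 72 h, 26 were not called and 7 were still higher. Of all genes tested, 19% were lower at 72 h whatever their call at 3 h, so this is not a like reference for the 14. The like share, among all 606 tested genes higher at 3 h, is not given here, so nothing is read from the 14. Few genes kept 1 call throughout: 4 were called higher in cold at all 5 times (0.414% of all genes), and 30 lower in heat at all 5 (2.58%).

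Of the genes that turned downward, scaffold1150.2 was at 497.2, 452.5 and 471.1 CPM in cold at 3 h, above its mock at 210.7, 197.1 and 208.6 CPM. At 72 h it was at 89.8, 84.5 and 72.9 CPM in cold, under a mock of 741.6, 646.4 and 688.9 CPM. The cold effect thus fell by 4.78 on the log2 scale (SE 0.12). In scaffold641.34 the cold libraries held 478.3, 523.9 and 511.7 CPM at 3 h (mock 139.6, 142.7 and 125.2) and 214.7, 237.8 and 278.1 CPM at 72 h (mock 859.3, 850.8 and 888.4), a change of -4.23 ± 0.18. The opposite course was that of scaffold588.52, at 94.5, 87.5 and 107.8 CPM in cold at 3 h, where the mock had 75.3, 67.8 and 66.8 CPM, and at 484.8, 376.8 and 367.0 CPM at 72 h, where the mock had 22.1, 20.6 and 22.3 CPM. Its cold effect rose by 3.26 ± 0.22. For scaffold516.6 the cold level was 13.8, 12.6 and 12.5 CPM at 3 h, within its mock range of 10.9 to 17.5 CPM, and 213.3, 252.2 and 229.6 CPM at 72 h, above a mock of 15.6, 12.5 and 15.8 CPM.

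The heat effect at 72 h, set against that at 3 h in the same way, was lower for 41 genes (12.2% of all tested) and higher for 9 (10.2%), 50 in all (22.4%), and without replicate 2 these numbers were 21 and 8. Among the 41, 12 came from the 40 genes lower in the mock at 6 h, 10 from the 37 higher and 19 from the rest. The like shares over all genes are not given here, so nothing is read from this division. The fall deepened in scaffold1186.45, whose heat libraries held 49.3, 56.2 and 43.3 CPM at 3 h (mock 224.3, 198.5 and 208.8) and 15.5, 10.4 and 11.3 CPM at 72 h (mock 403.4, 365.6 and 404.6). Its heat effect dropped by 3.10 on the log2 scale (SE 0.23). It eased in scaffold606.17, from 21.0, 17.5 and 10.5 CPM in heat at 3 h (mock 220.3, 243.6 and 243.7) to 460.8, 509.2 and 539.2 CPM at 72 h (mock 955.9, 1075 and 997.8), a change of 2.63 ± 0.23.

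Mannitol and NaCl were not used by the rule, although the mock libraries they were set against were. Averaged over the 5 times, 3 of the 120 genes were higher in mannitol (3.12% of all genes tested) and 9 lower (1.33%), with a median log2 fold change of -0.16 where all genes had 0.03. In NaCl 10 were higher (4.86%) and 12 lower (2.36%), with a median of -0.01 where all genes had 0.04. Genes of the set were called in both directions in either stress. The mannitol split depended on single libraries and on the scaling. It was 8 higher and 6 lower without replicate 1, 0 and 21 without replicate 3, 1 and 13 without mannitol 6 h replicate 3, 1 and 11 without mannitol 12 h replicate 3, 5 and 6 without mock 6 h replicate 1, 4 and 6 without mock 12 h replicate 1, and 3 and 5 when scaled by library totals. In NaCl 6 instead of 10 were higher without replicate 3.

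The calls differed from time to time. Mannitol after 3 h had 2 genes higher (1.7% of all) and 2 lower (0.975%). It had 1 higher (1.09%) and 26 lower (1.33%) after 6 h, and 8 higher (3.42%) and 12 lower (2.47%) after 12 h. After 24 h 6 were higher (7.02%) and 13 lower (5.24%), and after 72 h 19 were higher (6.59%) and 11 lower (2.44%). NaCl had 19 higher (5.14%) and 9 lower (2.73%) after 3 h, and 0 higher (2.42%) and 33 lower (3.39%) after 6 h. It had 15 higher (4.72%) and 5 lower (3.59%) after 12 h, 38 higher (12.8%) and 26 lower (11%) after 24 h, and 10 higher (3.68%) and 19 lower (2.11%) after 72 h. With library totals the 72 h splits became 22 and 5 in mannitol and 15 and 13 in NaCl, so the balance at 72 h depended on the scaling. The 6 h values rested on the libraries that stood apart. Without mock 6 h replicate 1 the mannitol counts at 6 h were 2 higher and 6 lower, without mannitol 6 h replicate 3 they were 2 and 52, and the 33 lower genes in NaCl at 6 h became 21 without mock 6 h replicate 1. Leaving out replicates 1, 2 and 3 in turn left 3, 8 and 51 genes lower in mannitol at 6 h, and 7, 8 and 24 at 12 h. Without mannitol 12 h replicate 3 that 12 h count was 18, and without mock 12 h replicate 1 NaCl had 23 genes higher at 12 h. Mannitol had 5 higher at 3 h without mock 6 h replicate 1, and 4 without mock 0 h replicate 3. Without replicate 3, 2 instead of 6 were higher in mannitol at 24 h and 12 instead of 19 at 72 h, and without replicate 1, 17 instead of 11 were lower at 72 h. Without replicate 2, 9 instead of 19 were higher in NaCl at 3 h.

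Among the genes named by smallest p, scaffold588.52 fell in mannitol. It was at 9.35, 6.96 and 10.1 CPM in mannitol at 24 h, under a mock of 44.2, 47.3 and 53.8 CPM, and its mean log2 fold change was -1.44 ± 0.07 (adjusted p = 5.87e-25, edgeR). Upward, scaffold929.3 was at 4.55, 5.63 and 6.50 CPM in mannitol at 72 h, where the mock had 0.789, 1.68 and 0.478 CPM, and its mean change was 1.13 ± 0.26 (adjusted p = 0.000246, edgeR), or 0.97 without replicate 3. In NaCl the leading rise was that of scaffold1202.11, to 25.7, 30.9 and 28.1 CPM at 24 h from a mock of 1.94, 2.23 and 1.70 CPM, with a mean change of 1.51 ± 0.19 (adjusted p = 2.89e-10, edgeR). The leading fall was that of scaffold641.34, at 151.9, 130.9 and 146.7 CPM in NaCl at 24 h under a mock of 809.4, 821.0 and 891.2 CPM, with a mean change of -1.24 ± 0.06. Neither of the NaCl groups overlapped its mock at 24 h.

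NaCl against mannitol compared both solutions at equal molar concentration, and it shares no library with the rule. Equal molar concentration does not make the osmotic stress equal, and no osmotic strength is reported for either solution. An effect of salt and a difference in osmotic stress therefore cannot be told apart. At 24 h 41 of the 120 were higher in NaCl (4.84% of all genes) and 14 lower (4.66%), so 45.8% of the set was called where 9.5% of all genes were. Fewer were called at the other times. After 3 h 2 genes were higher (1.04%) and 4 lower (0.5%), after 6 h 1 was higher (0.608%) and 12 lower (0.684%), after 12 h 2 were higher (0.296%) and 0 lower (0.296%), and after 72 h 1 was higher (0.99%) and 7 lower (2.79%). Without mannitol 6 h replicate 3 the 6 h counts became 18 and 11, and without mannitol 12 h replicate 3 the 12 h counts became 8 and 1. Without replicate 3 in every group the first pair was 20 and 8 and the second 10 and 0, and without replicate 2 or 3 the 7 lower genes at 72 h became 2. At 24 h, leaving out each replicate in turn gave between 47 and 52 genes in all. Over the 5 times together 3 genes were higher (0.531%) and 1 lower (0.332%). The 3 became 0 without replicate 1, 1 without replicate 2 and 23 without replicate 3. They became 14 without mannitol 6 h replicate 3 and 13 without mannitol 12 h replicate 3.

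The split by the mock was also seen in this contrast, which has no library in common with the mock. The split was made after the values had been seen, and the mock at 6 h took part in the choice of the genes. The counts of this paragraph are therefore a description. Of the 37 genes higher in the mock at 6 h, 27 were higher in NaCl than in mannitol at 24 h and 0 lower, and of the 40 lower genes, 14 were lower and 0 higher. Among all tested genes the shares were 23.6% of the 1637 and 23.1% of the 1367, against 73.0% and 35.0% in the set. The share of the higher genes moved with single libraries: it was 19 of 44 without replicate 2, 15 of 27 without replicate 3, 11 of 17 without replicate 1, 13 of 21 without mock 0 h replicate 3 and 9 of 13 without mock 6 h replicate 1. For the lower genes it lay between 14 of 40 and 18 of 39 when libraries or replicates were left out. Scaling by library totals instead of TMM gave 9 of 36 for the lower genes and 32 of 43 for the higher.

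**Figure D5:**
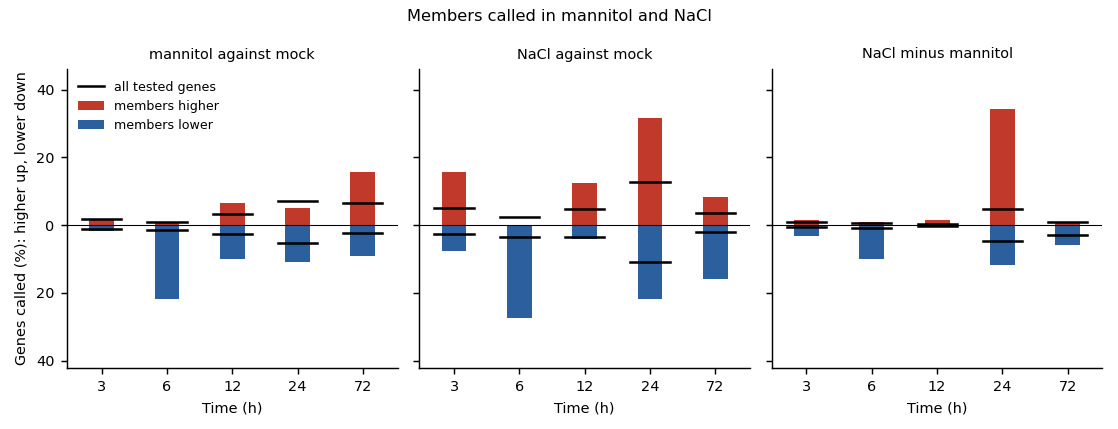
Percent of the 120 genes called higher (red, upward) or lower (blue, downward) in mannitol against mock, NaCl against mock, and NaCl against mannitol at each time, with black lines for the percent of all 19588 genes tested. At 24 h 34.2% of the set was higher and 11.7% lower in NaCl than in mannitol, where 4.84% and 4.66% of all genes were.

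At 24 h scaffold836.61 stood at 64.8, 65.8 and 51.8 CPM in NaCl, above 7.17, 5.09 and 4.09 CPM in mannitol and 5.96, 12.6 and 4.95 CPM in the mock. Its mean difference between NaCl and mannitol over the 5 times was 1.17 ± 0.25 (adjusted p = 0.000156, edgeR), or 0.95 without replicate 1. A like pattern was seen in scaffold823.8, at 47.6, 41.5 and 34.6 CPM in NaCl and 3.58, 5.09 and 4.80 CPM in mannitol at 24 h. In the other direction scaffold411.92, the gene with the lowest D(heat), was at 51.3, 45.3 and 63.9 CPM in NaCl at 24 h, where mannitol had 410.3, 295.3 and 345.1 CPM and the mock 422.0, 466.8 and 487.0 CPM. Its difference at 24 h was -2.89 ± 0.16 (adjusted p = 1.66e-21, edgeR). In each of these 3 genes the NaCl and mannitol libraries did not overlap at that time.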

How the data were processed

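Leaf RNA was sequenced as strand-specific libraries. Per the submitters' processing notes and the study's methods, reads were trimmed with cutadapt 1.9.1, mapped on the CM334 genome by HISAT2 and assigned to genes by featureCounts 1.5.2. The deposited values are whole-number read counts for 35884 genes in 78 libraries, without normalization. Groups and replicate numbers came from the sample labels. Of the columns of values, all were mapped to a library.

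Counts were fitted in R 4.3.3 with edgeR 4.0.16 (DESeq2 1.42.0 as an alternative), by a quasi-likelihood fit of all libraries with a factor of 26 groups, TMM scaling and filterByExpr, which kept 19588 genes and left 52 residual degrees of freedom. P-values were adjusted over these genes in each contrast by the Benjamini-Hochberg method. Genes with at most 3 counts in each of a group's libraries were taken as undetected there. Reads carried no molecular identifiers, so counts of one library give counting error only, and totals of 4310398 or more set its size.

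The genes were named by rule: the 2 with the largest D(cold), the 2 with the lowest D(heat), and for each tested contrast the called genes with the smallest p, at most 2 in each direction. Values are shown for most of them. The genes, lists and tests were chosen with earlier results of these data known. Libraries that stood apart were left out in turn as alternatives added after the data had been seen. Gene functions and sequences were not analysed here.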

Additional observations from a re-analysis of the deposited data

Results flagged for a closer look

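Differences between time points or between stresses singled out the following. The cold and heat values come from libraries that also chose the genes, so they are a description. Among the 120 genes, 93 had a cold effect at 72 h that differed from that at 3 h, and 50 had such a difference in heat. The cold effect rose by 3.26 in scaffold588.52 and by 3.56 in scaffold516.6 on the log2 scale, and changed by -4.78 in scaffold1150.2 and -4.23 in scaffold641.34. The heat effect rose by 2.63 in scaffold606.17 and by 2.0 in scaffold573.7, and changed by -3.10 in scaffold1186.45 and -2.01 in scaffold878.2. The mean difference between NaCl and mannitol was called in 4 genes, among them scaffold836.61 (1.17), scaffold823.8 (1.03) and scaffold411.92 (-1.25). Groups of 3 libraries were not tested for outlying samples.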

How the results depend on the processing

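Limits of 0.8 left 166 genes past the rule and a pseudocount of 4 CPM left 195, where the rule as stated left 295. Leaving out a replicate number left 280 to 324. The list itself moved more with the time points. Without the 3, 6, 12, 24 or 72 h time point, 87, 97, 99, 101 and 89 of the 120 were among the genes kept. Without 72 h, 97 of the 120 were still past the limits. With the adjusted p alone as the limit, the mean effect of mannitol was called in 67 of the 120 genes, that of NaCl in 75 and their difference in 66. The shares of all genes at this limit are not given here, so no excess is read from these counts. Leaving out a replicate number in turn gave 11 to 21 genes for mannitol (10 without mock 12 h replicate 1), 20 to 24 for NaCl, 1 to 24 for NaCl against mannitol, 91 to 92 for the cold effect at 72 h against 3 h, 29 to 53 for the heat effect and 94 to 99 for the mock over time. The difference between NaCl and mannitol was called in 15 genes without mannitol 6 h replicate 3 and in 14 without mannitol 12 h replicate 3; the cause was not tested. With the replicate number as a replicate block the counts were 11 for mannitol, 22 for NaCl, 4 for their difference, 93 for cold, 50 for heat and 100 for the mock, and none of these counts moved by over 1.5 times. Same-numbered stress and mock libraries did not deviate together (median correlation 0.00906 over 60 pairs, 5 of them over 0.1), so the number marks no pairing. No fold change of a named gene reversed its direction. The balance of higher and lower calls did reverse in several comparisons, of which those listed here are examples. They include mannitol (8 and 6 without replicate 1), NaCl (11 and 10 with library totals) and NaCl at 72 h (15 and 13 with library totals). NaCl against mannitol at 6 h (18 and 11 without mannitol 6 h replicate 3) and the mock at 24 h (10 and 8 with library totals) did so as well. The mock at 6 h, with 37 higher and 40 lower, had 43 and 36 with library totals and 44 and 39 without replicate 2. Mannitol had 10 and 7 at 12 h without replicate 1, and 12 and 13 at 72 h without replicate 3. Of the genes named, scaffold134.198, scaffold929.3, scaffold1609.1, scaffold836.61 and scaffold823.8 dropped under the fold limit in some settings. Genes near the floor in heat carry the least precise fold changes.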
